A study of Mus musculus with 8 samples.

Results

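The experiment described here asked what the loss of *Arid1a* does to the transcriptome of mouse bone marrow-derived monocytes (BMDMs) that are being driven towards osteoclasts, the bone-resorbing cells of the myeloid lineage. It comprises 4 of the 8 libraries of the series, chosen by their genotype labels: 2 libraries from LysM-Cre;Arid1a fl/fl mice (mutant 1 and mutant 2) and 2 libraries labelled CONTROL (control 1 and control 2). All 4 cultures received the same treatment, 50 ng/ml M-CSF, which keeps monocytes alive, and 100 ng/ml RANKL, which starts osteoclast differentiation. In the mutant, Cre recombinase is driven by the lysozyme M promoter, so deletion is limited to myeloid cells that have switched this promoter on, and the floxed part of *Arid1a* is exons rather than the whole gene. The background is C57BL/6. The labels do not say whether the controls carried LysM-Cre or the floxed alleles, and an effect of Cre itself and an effect of *Arid1a* loss cannot be told apart where they did not. The study describes the libraries of a group as biologically independent samples, and the labels do not say whether these are separate mice or separate cultures. Every p-value measures the spread between such samples. Without a length correction, the spread between the controls includes a gene length difference, described below.

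ARID1A binds DNA as part of the canonical BAF (SWI/SNF) complex, which slides and evicts nucleosomes and keeps many enhancers open. ARID1B takes the same position in the complex, and ARID2 belongs to the related PBAF complex. In monocytes, RANKL normally calls up a programme of fusion, acid secretion and matrix digestion.

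Each library held 15108239 to 16508035 counted reads over 21958 genes, of which 11319 had enough reads to be tested. The unit of level is CPM, a read count made comparable between libraries by TMM-adjusted totals and not corrected for gene length, and a change is the log2 fold change of mutant over control ± SE. A gene was called when edgeR's quasi-likelihood test gave a Benjamini-Hochberg adjusted p under 0.05 over all 11319 genes. By this test 2047 genes rose (18.1% of those tested) and 1845 fell (16.3%). An exact permutation test on a single gene cannot go below p = 0.33 with 2 libraries against 2, so the model across all genes carries every test given here. All 25 macrophage markers were present at 1 CPM or more in all 4 libraries, with summed levels of 18505 to 18542 CPM in mutant and 19174 to 21818 CPM in control. The sums lean on *Lyz2*, described below, with 4452 and 4533 CPM in mutant and 12960 and 10577 CPM in control. Reads from the Y-linked genes *Ddx3y*, *Eif2s3y*, *Kdm5d* and *Uty* were found in every library.

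The 2 controls were not alike. Control 1 held more reads of short genes and fewer of long genes than control 2: the median log2 ratio of control 1 over control 2 was 0.24 in the shortest 10% of genes (median length 1415 bases) and -0.25 in the longest 10% (median length 12524 bases). The mutant libraries showed no such slope, with medians of 0.02 and -0.01 in the same classes. Over all genes tested, the SD of the log2 ratio was 0.297 between the mutants and 0.352 between the controls. The fold change over both controls therefore leaned on gene length as well, with -0.24 in the shortest 10% and 0.18 in the longest 10%, and the slope was steeper without control 2 (-0.36 and 0.31) than without control 1 (-0.10 and 0.06). Every claim was for this reason put through 3 further fits: without control 1, without control 2, and with an offset that removes the length trend from each library. A call that passed in the same direction in all 4 fits is said to have held. Without a control the spread came mainly from the closer mutant pair, and each such fit called more genes than the test above. Fits without a mutant library are described at the end and are not part of this rule. Of the 3892 calls, 3400 held, 1856 of them higher (16.4% of the genes tested) and 1544 lower (13.6%). These shares are the background for each count of held genes in a list below. The groups did not overlap for any of the 3400, which passing against each control alone nearly ensures, so this adds no support. Of all genes tested, 69.2% had groups that did not overlap. The length offset cost 239 calls, leaving out control 1 cost 216 and leaving out control 2 cost 118, and no call turned into a call in the opposite direction.

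**Figure D1:**
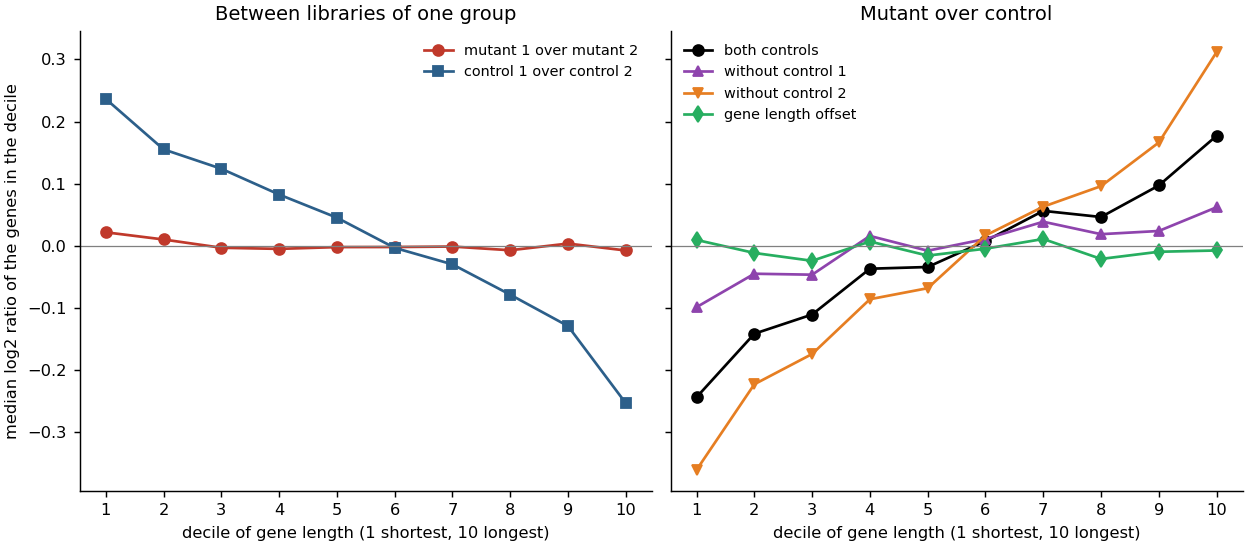
Median log2 ratio of the genes in each of 10 length classes (x axis, shortest to longest). Left, mutant 1 over mutant 2 (red circles) and control 1 over control 2 (blue squares). Right, mutant over control with both controls, without control 1, without control 2 and with the gene length offset. The control pair runs from 0.24 to -0.25 and the mutant pair stays near 0.

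Genes above 100 CPM whose change depended most on the control were *Prrc2c*, *Kat6a*, *Spen*, *Wdfy3* and *Kmt2d*, all 9330 bases or longer. *Prrc2c* had 763 and 787 CPM in mutant, against 396 and 739 CPM in control, so its mutant libraries sat just above control 2 and far above control 1. Its log2 fold change was 0.07 without control 1 and 0.96 without control 2. *Kat6a*, a histone acetyltransferase gene, was called over both controls (0.67 ± 0.21, adjusted p = 0.0297) and lost its call with the length offset. *Wdfy3* and *Kmt2d* were called and held, *Spen* was not called (adjusted p = 0.0768). The list of histone acetyltransferase and BET genes (35 tested) moved with the control: its median log2 fold change was 0.01 without control 1 and 0.22 without control 2. Of its members, 5 held as higher (14.3%) and 1 as lower (2.86%), below the shares of all genes tested.

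**Figure D2:**
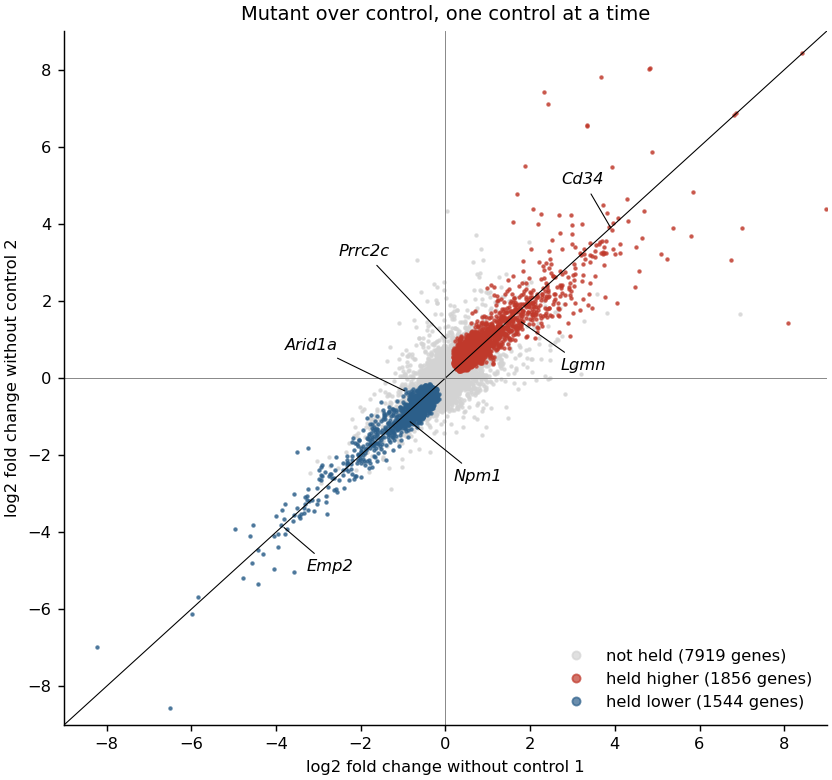
Log2 fold change of each gene tested, without control 1 (x axis) and without control 2 (y axis). Red, 1856 genes held as higher in mutant; blue, 1544 held as lower; grey, the rest. The line marks equal values. *Prrc2c* lies off the line at 0.07 and 0.96.

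*Arid1a* itself (chromosome 4:133406319-133484080, minus strand, GRCm39) had 2031 and 1888 reads in mutant, against 2616 and 3554 reads in control. In CPM these were 126 and 121 in mutant and 159 and 229 in control, so the groups did not overlap and the controls differed more than the mutants. The fall was -0.65 ± 0.15 (adjusted p = 0.00607). It held in every fit, but its size did not: it was -0.89 without control 1, -0.37 without control 2 and -0.81 with the length offset. *Arid1b*, the alternative subunit, had 148 and 147 CPM in mutant and 80.2 and 111 CPM in control and rose by 0.63 ± 0.14 (adjusted p = 0.00566; 0.41 without control 1 and 0.88 without control 2). *Arid2* rose by 0.51 ± 0.14 (adjusted p = 0.0201), with 0.29 without control 1 and 0.76 without control 2, and lost its call when mutant 1 was left out and in the fits on FPKM. Of the 26 BAF family genes tested, 4 held as higher (15.4%) and 2 as lower (7.69%), no more than the 16.4% and 13.6% of all genes tested.

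*Lyz2*, the lysozyme M gene that lends its promoter to the Cre driver, was among the most abundant transcripts and fell. It had 4452 and 4533 CPM in mutant, against 12960 and 10577 CPM in control. The groups were far apart, and the change was -1.39 ± 0.10 (adjusted p = 5.00e-06), -1.24 without control 1 and -1.53 without control 2. In the LysM-Cre line in common use the recombinase sits inside one copy of *Lyz2*, and the labels give neither the construction of this strain nor the Cre status of the controls, so loss of a copy and lower transcription cannot be told apart. The neighbouring paralog *Lyz1*, nearly identical in sequence, had 3 and 6 reads in mutant and 35 and 11 in control, and reads could be shared between the 2 genes.

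Outside the reference lists of osteoclast, interferon, MHC class II and cytokine genes, many genes that build ribosomes fell. Of 65 ribosome biogenesis genes tested, 53 fell and 0 rose, and 49 held as lower. All 65 had a log2 fold change below 0, with a median of -0.47 against -0.00 for all genes tested. This median moved little with the control: -0.44 without control 1, -0.52 without control 2 and -0.43 with the length offset. *Npm1*, the nucleolar chaperone nucleophosmin, had 444 and 445 CPM in mutant, against 934 and 829 CPM in control. The mutant libraries were almost equal and both lay below the controls (-0.99 ± 0.09, adjusted p = 1.75e-05). *Nop16*, a large-subunit assembly factor, had 44.7 and 53.1 CPM in mutant, against 105 and 91.6 CPM in control (-1.01 ± 0.12, adjusted p = 0.000132). *Ncl*, the nucleolar protein nucleolin, is a long gene (10188 bases) and fell too, with 887 and 915 CPM in mutant, against 1752 and 1652 CPM in control. Its change was -0.92 ± 0.08, and -1.07 once the length offset was applied.

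The 82 cytosolic ribosomal protein genes pointed the same way, and here gene length mattered. Of these, 76 fell, 74 held as lower and 0 rose, with a median of -0.71. They are short (median 1806 bases), and their median was -0.53 without control 1, -0.84 without control 2 and -0.52 with the length offset, where the offset fit put the shortest 10% of all genes at 0.01. *Rpl36*, a large-subunit protein encoded by a gene of only 383 bases, had 41.0 and 40.1 CPM in mutant, against 90.6 and 71.5 CPM in control. Its change of -1.0 ± 0.13 (adjusted p = 0.0002) shrank to -0.46 with the length offset and still passed. Of 66 translation factor genes, 36 held as lower and 2 as higher. *Pabpc4*, a poly(A)-binding protein, had 57.7 and 61.5 CPM in mutant, against 124 and 118 CPM in control (-1.02 ± 0.10, adjusted p = 2.96e-05). *Eef2k*, the kinase that restrains elongation factor 2, fell as well (-1.49 ± 0.21, adjusted p = 0.000345), so not every member that fell promotes translation. The 2 held as higher were *Eif2ak2* (0.97 ± 0.09) and *Eif4g3* (0.53 ± 0.10), and 1 of the 66 genes is also on the interferon list. *Eef1a2*, a tissue-restricted form of the elongation factor, was nearly lost, with 3 and 4 reads in mutant, against 260 and 225 reads in control. Among 21 aminoacyl-tRNA synthetase genes 4 held as lower, 19.0% against 13.6% of all genes tested.

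Nucleotide, serine and polyamine synthesis genes fell with them: 22 of 37 held as lower and 1 as higher, with a median of -0.37 (-0.42 without control 1, -0.38 without control 2 and -0.37 with the length offset). *Srm*, spermidine synthase, had 54.6 and 51.4 CPM in mutant, against 124 and 106 CPM in control (-1.11 ± 0.11, adjusted p = 3.89e-05). *Impdh2*, the rate-limiting enzyme of guanine nucleotide synthesis, had 63.1 and 65.8 CPM in mutant, against 152 and 127 CPM in control (-1.12 ± 0.11, adjusted p = 3.96e-05). The exception, *Sat1*, acetylates polyamines for export and rose by 0.54 ± 0.10 (adjusted p = 0.00200), a call lost without mutant 1. *Myc*, the transcription factor best known for driving such growth genes, had 201 and 208 CPM in mutant, against 374 and 361 CPM in control. The controls were close to each other for this gene, and it changed by -0.84 ± 0.08 on the log2 scale (adjusted p = 3.48e-05; -0.82 and -0.87 without control 1 and control 2).

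Mitochondrial genes were lower with less certainty. Of 76 mitochondrial ribosomal protein genes, 34 fell and 24 held. Of 80 nuclear oxidative phosphorylation genes, 37 fell but only 19 held, and their median of -0.37 was -0.24 without control 1, -0.49 without control 2 and -0.17 with the length offset. These genes are short (median 1737 bases). For the 10 mitochondrially encoded genes the controls agreed (medians of -0.64 and -0.66 without control 1 and control 2), whereas with the length offset the median was -0.30, against -0.65 without it. *mt-Nd1* had 2062 and 2003 CPM in mutant, against 3484 and 3685 CPM in control (-0.82 ± 0.08, adjusted p = 3.49e-05). *mt-Co1*, the most abundant of them, was level at 15522 and 15197 CPM in mutant and 15979 and 16865 CPM in control (-0.10 ± 0.08, adjusted p = 0.392), so the mitochondrial transcripts did not move as a block. Of 47 DNA replication and S phase genes, 12 held as lower (25.5%) and 1 as higher (2.13%). The 47 G2 and M phase genes were balanced, with 4 held as higher (8.51%) and 5 as lower (10.6%), below the shares of all genes tested.

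**Figure D3:**
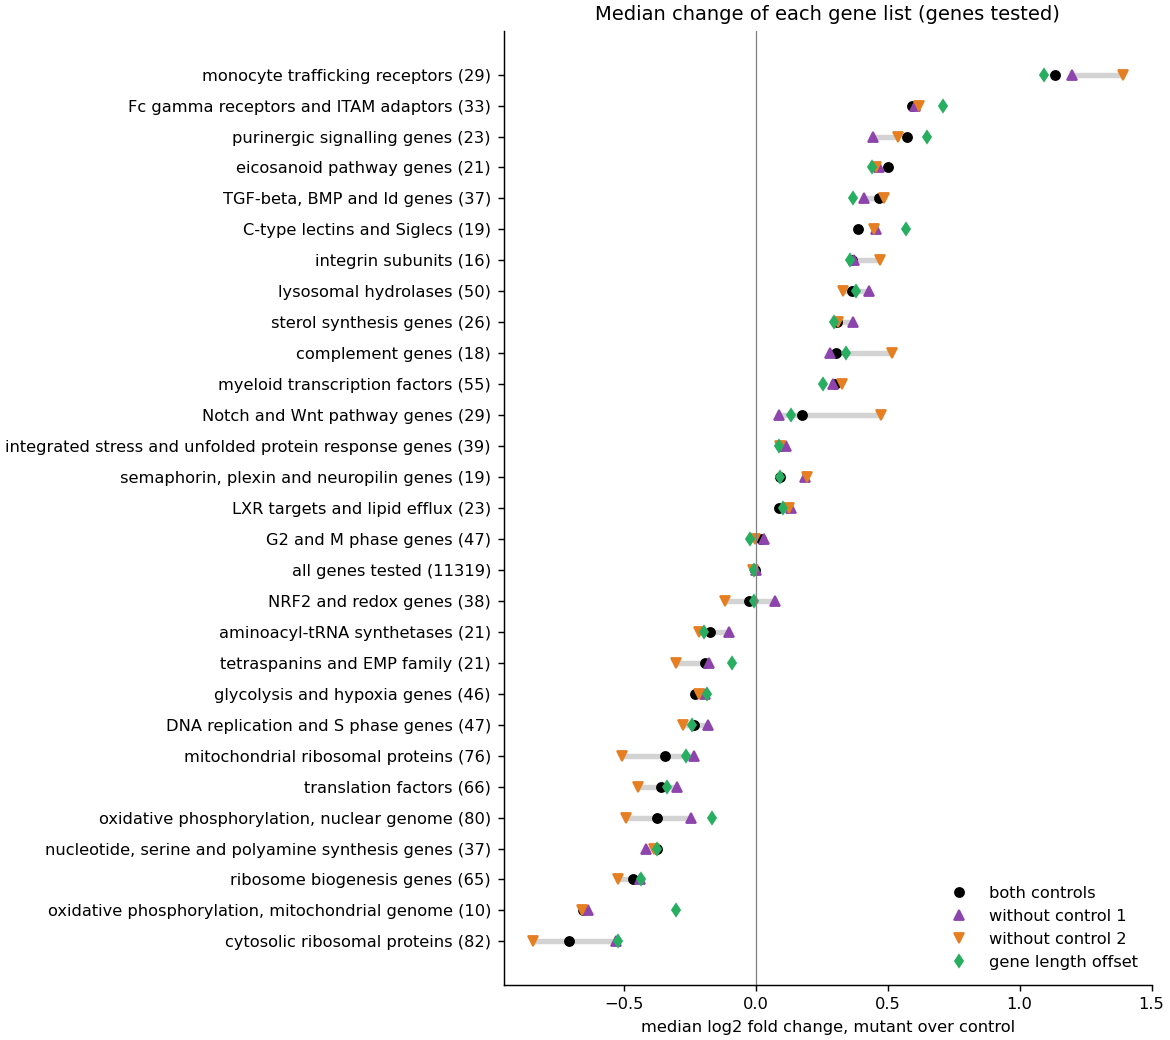
Median log2 fold change of mutant over control for gene lists (number of genes tested in parentheses), ordered by the value with both controls (black). Triangles leave out control 1 or control 2, diamonds apply the gene length offset and grey bars join the values of the single controls. Ribosome biogenesis genes stay between -0.52 and -0.43, whereas nuclear oxidative phosphorylation genes run from -0.49 to -0.17.

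In the other direction, many surface receptors of monocytes and macrophages rose. Of 29 trafficking receptors, 19 held as higher and 3 as lower, with a median of 1.13 (1.2 without control 1, 1.39 without control 2 and 1.09 with the length offset). *Cx3cr1*, the fractalkine receptor of patrolling monocytes and resident macrophages, had 346 and 350 CPM in mutant, against 51.1 and 49.5 CPM in control. The libraries of each group lay close together and the groups far apart (2.79 ± 0.09, adjusted p = 8.35e-08). *Gpr84*, a receptor for medium-chain fatty acids, had 177 and 174 CPM in mutant, against 46.0 and 46.5 CPM in control (1.92 ± 0.10, adjusted p = 3.28e-07). The 3 that fell were *Adgre5* (CD97, -1.0 ± 0.15, adjusted p = 0.000509), *Ccr1* (-0.60 ± 0.10, adjusted p = 0.00103) and *Ccr3* (-1.04), all chemokine or adhesion receptors.

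Of 33 Fc gamma receptor and ITAM adaptor genes, 22 held as higher and 1, *Pilra*, as lower, with a median of 0.59; 2 of the 33 are also on the interferon list. *Treml2* had 16.0 and 15.6 CPM in mutant, against 2.01 and 1.93 CPM in control (3.0 ± 0.21, adjusted p = 2.61e-06). *Sirpb1c*, an ITAM-coupled member of the signal-regulatory protein family, had 91.5 and 83.7 CPM in mutant, against 15.9 and 11.5 CPM in control (2.68 ± 0.15). It belongs, with *Sirpb1a* and *Gm5150*, to a cluster of similar genes on chromosome 3 that all rose, and reads may be divided unevenly among such copies. *Cd33*, an inhibitory Siglec, had 77.7 and 69.7 CPM in mutant, against 11.9 and 12.2 CPM in control (2.61 ± 0.12, adjusted p = 2.19e-07). Of 19 C-type lectin and Siglec genes, of which 2 are also on the interferon list, 11 held as higher, whereas *Cd207*, langerin, was 1 of the 2 held as lower (-1.77 ± 0.19, adjusted p = 6.68e-05).

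Of 18 complement genes tested, 9 held as higher and 4 as lower, with a median of 0.30. The 3 chains of C1q, the recognition molecule of the classical pathway, fell together: *C1qb* had 147 and 148 CPM in mutant, against 465 and 365 CPM in control (-1.49 ± 0.12, adjusted p = 6.47e-06), with *C1qa* at -1.42 ± 0.13 and *C1qc* at -1.23 ± 0.12. These genes are short and lie side by side on chromosome 4, and without control 1 they were at -1.31, -1.2 and -1.06 (in the order *C1qb*, *C1qa*, *C1qc*). *C3*, the central component of the cascade, rose by 1.01 ± 0.09, with 1088 and 1172 CPM in mutant, against 546 and 576 CPM in control. Among the 25 macrophage markers, 14 held as higher and 5 as lower.

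Markers of other bone marrow cells moved too. Of 22 neutrophil markers tested, 14 held as higher and 2 as lower, with a median of 1.95. Among the 2 was *Mmp9*, which is also on the osteoclast list and counts in the sum below. Its means were 18.8 CPM in mutant and 184 CPM in control. The granule gene *Ltf* was at a low level, with 13.4 and 10.9 CPM in mutant, against 1.58 and 0.901 CPM in control. *Ngp* had 69.1 and 55.8 CPM in mutant, against 15.2 and 10.4 CPM in control. The summed level of all 26 neutrophil markers was 4432 and 4484 CPM in mutant and 4099 and 3907 CPM in control, and *Ly6g*, the defining surface marker, had 2 and 0 reads in mutant and 0 in either control. Of 13 progenitor markers, 9 held as higher and 0 as lower. The progenitor and neutrophil lists share *Mpo* and *Elane*, so their counts are not separate. *Cd34* had 28.3 and 29.2 CPM in mutant, against 2.01 and 1.87 CPM in control, and *Ly6a* (Sca-1) had 192 and 172 CPM in mutant, against 17.2 and 8.04 CPM in control. *Ly6a* is also on the interferon list. *Kit*, a defining progenitor receptor, had only 4 and 13 reads in mutant and 7 and 5 in control, and *Flt3* 0 and 2 in mutant and 0 and 1 in control. The summed level of the 26 progenitor markers in the table was 952 to 970 CPM in mutant and 485 to 517 CPM in control. In the T and NK cell list, 10 of the 17 genes in the table, *Cd3e* among them, had 0 reads in all 4 libraries. The summed level of the 17 was 184 and 174 CPM in mutant and 136 and 135 CPM in control. Only 7 had any reads and 1 reached 1 CPM or more in all 4 libraries, so the sum rests on few genes. Of the 2 tested, 1 held as higher and 0 as lower. In bulk RNA, more cells of a type and more RNA per cell cannot be told apart, and the part of these markers in the receptor changes was not tested.

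The purinergic list was divided: of 23 genes, 11 held as higher and 5 as lower. *Entpd1* (CD39, chromosome 19:40600810-40730046), which removes phosphates from ATP and ADP outside the cell, had 101 and 105 CPM in mutant, against 12.7 and 9.65 CPM in control. *Nt5e* (CD73), which turns the resulting AMP into adenosine, had 13.1 and 12.6 CPM in mutant, against 1.70 and 2.57 CPM in control. The rises were 3.20 ± 0.14 and 2.59 ± 0.24 (adjusted p = 1.85e-07 and 1.97e-05), and *Enpp4*, another nucleotide hydrolase, rose by 2.40 ± 0.16. The members that fell included the nucleoside transporters *Slc29a1*, of the plasma membrane (-0.67 ± 0.12), and *Slc29a3*, of intracellular membranes (-0.92 ± 0.13), and adenosine kinase, *Adk* (-0.56 ± 0.11, adjusted p = 0.00360), whose call was lost without mutant 2.

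Matrix, guidance and contact genes held some of the widest gaps between the groups. *Col4a1* and *Col4a2*, the paired basement membrane collagen genes that are read in opposite directions from one site on chromosome 8, rose together. *Col4a1* had 50.4 and 54.0 CPM in mutant, against 5.30 and 4.50 CPM in control (3.41 ± 0.15, adjusted p = 1.78e-07), and *Col4a2* had 78.5 and 83.5 CPM in mutant, against 8.64 and 8.43 CPM in control (3.24 ± 0.12, adjusted p = 1.37e-07). The tetraspan protein gene *Emp2* had 9.53 and 7.95 CPM in mutant, against 123 and 129 CPM in control, the largest held fall outside the reference lists among genes averaging 20 CPM or more in either group (-3.85 ± 0.13). Among semaphorins and plexins the list was divided, with 8 of 19 held as higher and 6 as lower, a median of 0.09 and a mean of -0.04. *Plxna4* had 8.05 and 4.93 CPM in mutant, against 37.4 and 50.3 CPM in control (-2.75 ± 0.22, adjusted p = 7.67e-06), and *Plxnd1* had 165 and 165 CPM in mutant, against 478 and 549 CPM in control (-1.64 ± 0.10). *Plxna1*, the semaphorin co-receptor component of osteoclast precursors, rose instead (0.83 ± 0.14, adjusted p = 0.00107), by 0.59 without control 1 and 1.1 without control 2. Of the Notch ligands, *Jag2* had 16.7 and 17.4 CPM in mutant, against 1.77 and 1.29 CPM in control (3.47 ± 0.22), whereas *Jag1* changed by -0.57 ± 0.12 on the log2 scale and lost its call without mutant 2.

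Many genes of the TGF-beta, BMP and Id list rose, among them a receptor, a transducer and a feedback repressor. Of 37 genes of this list tested, 19 held as higher and 5 as lower, with a median of 0.47 (0.41 without control 1, 0.49 without control 2 and 0.37 with the length offset). *Tgfbr1*, the type I receptor, had 209 and 195 CPM in mutant, against 65.6 and 70.7 CPM in control (1.57 ± 0.10, adjusted p = 1.52e-06). *Smad3*, which carries the signal to the nucleus, had 62.9 and 61.9 CPM in mutant, against 17.9 and 23.8 CPM in control (1.58 ± 0.14, adjusted p = 1.57e-05). *Skil*, a feedback repressor of SMAD proteins, rose by 1.1 ± 0.15, by 0.85 without control 1 and by 1.39 without control 2. *Eng* (endoglin), an accessory receptor, and *Smurf1*, which marks pathway proteins for degradation, changed by -0.92 ± 0.13 and -0.62 ± 0.11 on the log2 scale.

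**Figure D4:**
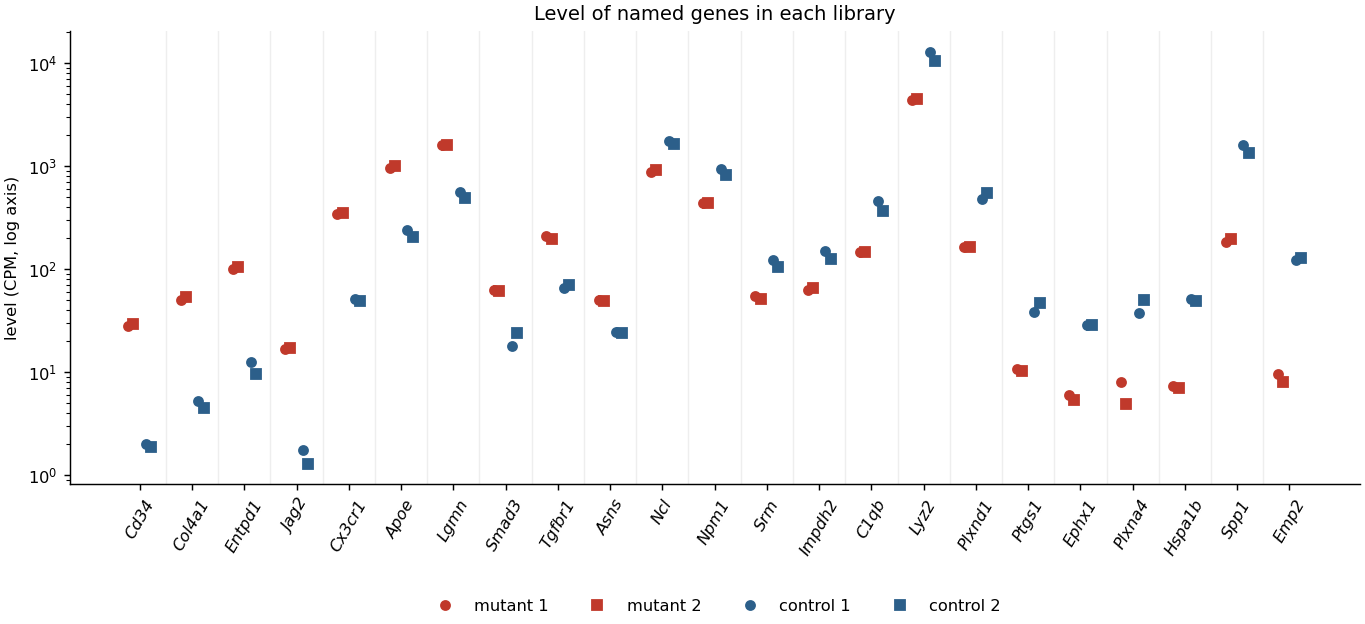
Level in CPM (log axis) of named genes in each library: mutant 1 and mutant 2 (red circle and square, left of each pair) and control 1 and control 2 (blue circle and square, right). The groups do not overlap for any gene shown, a condition of the rule that picked most of them. Over all genes tested 69.2% did not overlap. *Cd34* stands at 28.3 and 29.2 CPM in mutant and at 2.01 and 1.87 CPM in control.

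Lysosomal genes rose as a list: 30 of 50 held as higher and 2 as lower, with a median of 0.36 that ran from 0.33 to 0.43 in the 3 further fits. *Lgmn*, the asparaginyl endopeptidase legumain, had 1624 and 1626 CPM in mutant, against 569 and 493 CPM in control (1.61 ± 0.09, adjusted p = 8.22e-07). *Cd63*, a tetraspanin of the lysosomal membrane, changed by -0.57 ± 0.11 on the log2 scale. Lysosomal genes are known for an 8-base element, CACGTGAC, bound by TFEB and its relatives. It was found on either strand in the RefSeq promoter window (250 bases before to 50 after the start, GRCm38.p6) of 10 of the 39 list members with a window, 25.6%, and in 2.55% of all 27025 genes with one. Of these 10, 6 held as higher and 0 as lower, the same share as the 30 of 50 of the whole list. The windows of *Ctsd*, cathepsin D, which had 2596 and 2491 CPM in mutant, against 1323 and 1125 CPM in control, and of *Lgmn* are shown because they belong to the members with the element that rose most, with the element in capitals. The window of *Ctsd* lies at chr7:142387778-142388077 and that of *Lgmn* at chr12:102439043-102439342, both on the minus strand.
Ctsd: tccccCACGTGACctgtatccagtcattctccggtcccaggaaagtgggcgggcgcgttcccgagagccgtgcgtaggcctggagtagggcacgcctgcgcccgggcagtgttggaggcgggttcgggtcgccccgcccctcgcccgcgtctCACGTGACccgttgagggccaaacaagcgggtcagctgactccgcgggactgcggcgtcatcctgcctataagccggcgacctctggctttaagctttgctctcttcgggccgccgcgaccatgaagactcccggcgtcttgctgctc
Lgmn: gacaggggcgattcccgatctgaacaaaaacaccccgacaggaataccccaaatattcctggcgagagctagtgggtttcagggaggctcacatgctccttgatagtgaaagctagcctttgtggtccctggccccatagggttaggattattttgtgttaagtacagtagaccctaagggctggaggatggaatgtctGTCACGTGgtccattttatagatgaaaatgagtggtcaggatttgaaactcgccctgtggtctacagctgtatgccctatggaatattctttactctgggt
A match describes these letters in this window, and binding was not measured here.

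Lipid handling genes were divided. *Nr1h3* (LXR alpha), the oxysterol receptor, had 89.1 and 99.2 CPM in mutant, against 35.8 and 27.4 CPM in control (1.57 ± 0.14, adjusted p = 1.45e-05). Its targets *Apoe*, with 975 and 1009 CPM in mutant, against 243 and 207 CPM in control, and *Abca1*, the cholesterol exporter, rose by 2.14 ± 0.10 and 1.62 ± 0.13. *Abcg1*, the partner exporter and also an LXR target, had 27.9 and 29.0 CPM in mutant, against 53 and 51.2 CPM in control and fell (-0.87 ± 0.11, adjusted p = 0.000166), as did *Lpl*, lipoprotein lipase (-0.98 ± 0.09). The LXR list as a whole held 10 genes as higher and 4 as lower of 23, with a median of 0.09. Sterol synthesis genes were more uniform, with 11 of 26 held as higher and 0 as lower. In the eicosanoid list, 11 of 21 held as higher and 4 as lower. *Ptgs1*, the constitutive cyclooxygenase, had 10.8 and 10.2 CPM in mutant, against 38.5 and 46.9 CPM in control (-2.03 ± 0.15, adjusted p = 3.94e-06), and *Ephx1*, an epoxide hydrolase, had 5.94 and 5.32 CPM in mutant, against 29.0 and 28.5 CPM in control (-2.35 ± 0.15). *Hpgds*, the prostaglandin D synthase of blood cells, and *Pla2g7*, which degrades platelet-activating factor, rose by 0.97 ± 0.10 and 1.25 ± 0.10.

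Of 39 integrated stress and unfolded protein response genes, 10 held as higher and 0 as lower, with a median of 0.10. *Asns*, asparagine synthetase, had 50.1 and 48.8 CPM in mutant, against 24.7 and 23.8 CPM in control (1.03 ± 0.11, adjusted p = 6.41e-05), and the transcription factor genes *Atf5* and *Nupr1* each rose by 1.05 ± 0.16. *Slc7a11*, the cystine importer, rose by 0.98 ± 0.18, by 0.71 without control 1 and by 1.32 without control 2. The element TGATGNAA, the core of the site that ATF4 and its partners bind in such genes, was found on either strand in the promoter windows of 8 of 35 members (22.9%) and of 4.51% of all genes, and 5 of the 8 held as higher. The window of *Asns*, in which this element is best known, lies at chr6:7693160-7693459 on the minus strand (GRCm38.p6, RefSeq), with the element in capitals.
Asns: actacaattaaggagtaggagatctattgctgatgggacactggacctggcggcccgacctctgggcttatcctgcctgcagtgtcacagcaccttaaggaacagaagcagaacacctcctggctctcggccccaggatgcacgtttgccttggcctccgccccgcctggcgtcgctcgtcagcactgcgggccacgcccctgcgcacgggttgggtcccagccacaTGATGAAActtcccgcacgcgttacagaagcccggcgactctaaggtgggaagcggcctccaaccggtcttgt
Heat shock gene *Hspa1b* went the opposite way, with 7.36 and 6.99 CPM in mutant, against 51.1 and 49.2 CPM in control (-2.80 ± 0.13, adjusted p = 2.19e-07). Its near-identical neighbour *Hspa1a* had 16 and 24 reads in mutant and 43 and 66 in control, and reads may be divided between the copies. Of 38 NRF2 and redox genes, 8 held as higher and 12 as lower. *Cybb*, the catalytic subunit of the phagocyte oxidase, rose by 1.2 ± 0.08, while the glutathione transferase genes *Mgst3*, *Mgst1* and *Gsto1* changed by -1.3 ± 0.16, -1.14 ± 0.15 and -1.12 ± 0.10 on the log2 scale. The median of this list changed sign with the control, at 0.07 without control 1 and -0.12 without control 2.

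Glycolytic genes were mixed: of 46 glycolysis and hypoxia genes, 16 held as lower and 9 as higher. *Pfkfb3*, which makes the activator of phosphofructokinase, had 93.3 and 82.2 CPM in mutant, against 34.7 and 40.0 CPM in control (1.23 ± 0.12, adjusted p = 2.90e-05). *Slc16a1*, a lactate transporter, had 22.3 and 21.8 CPM in mutant, against 50.8 and 44.1 CPM in control (-1.11 ± 0.12, adjusted p = 7.10e-05). Among 55 myeloid transcription factor genes, 22 held as higher and 4 as lower. *Maf*, a regulator of macrophage identity, had 178 and 166 CPM in mutant, against 74.5 and 76.1 CPM in control (1.19 ± 0.10, adjusted p = 7.92e-06), and *Bhlhe40* had 45.4 and 51.2 CPM in mutant, against 93.7 and 91.8 CPM in control (-0.94 ± 0.11, adjusted p = 8.83e-05). *Mdm2*, the p53 ubiquitin ligase, changed by -0.58 ± 0.08 on the log2 scale, with 493 and 491 CPM in mutant, against 716 and 755 CPM in control.

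**Figure D5:**
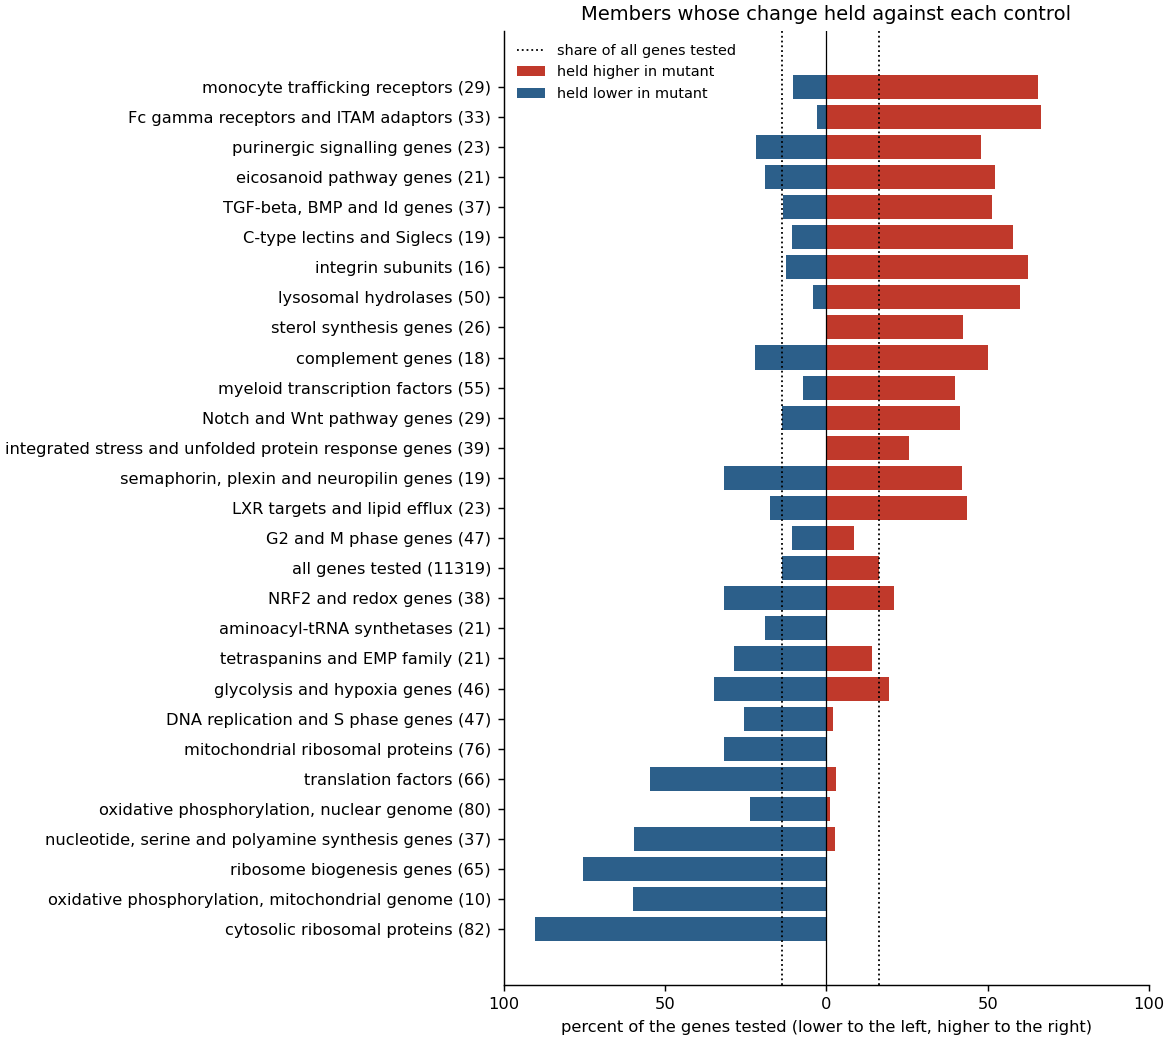
Percent of the genes tested in each list (number in parentheses) whose change held in all 4 fits, higher in mutant to the right (red) and lower to the left (blue). Dotted lines mark the shares over all genes tested, 16.4% higher and 13.6% lower. Ribosome biogenesis genes have 0 held as higher and monocyte trafficking receptors have 19 of 29.

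Outside the reference lists (osteoclast, interferon, MHC class II and cytokine genes), the 15 largest held rises with at least 20 CPM in a group included *Atp2b4*, a plasma membrane calcium pump, with 73.8 and 69.3 CPM in mutant, against 9.80 and 13.1 CPM in control (2.65 ± 0.15). They also included *Nuak1*, an AMPK-related kinase, at 36.2 and 34.0 CPM in mutant, against 5.30 and 6.24 CPM in control (2.60 ± 0.15), and *Kcnj10*, an inward rectifier potassium channel (2.60 ± 0.18). Among the 15 largest falls were *Uchl1* and *Nkain1*, better known from neurons. *Uchl1*, a ubiquitin hydrolase, had 9.22 and 7.95 CPM in mutant, against 64.7 and 53.4 CPM in control (-2.78 ± 0.15, adjusted p = 4.92e-07), and *Nkain1*, which interacts with sodium pumps, changed by -2.02 ± 0.13 on the log2 scale. *Dusp5*, a nuclear phosphatase of ERK, had 7.86 and 7.24 CPM in mutant, against 35.0 and 40.3 CPM in control (-2.32 ± 0.15), whereas *Dusp1*, which acts on p38 and JNK, rose by 1.14 ± 0.10 (177 and 191 CPM in mutant, against 84.8 and 82.4 CPM in control).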

How the data were processed

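Total RNA from BMDM cultures was extracted with TRIzol and made into libraries with the NEBNext Ultra II kit. Per the submitters' notes, the authors trimmed reads with Cutadapt 1.15, aligned them to GRCm39 with HISAT2 2.0.5 and counted reads per gene with HTSeq 0.9.1. The deposited table holds raw read counts per gene and FPKM values, made by the authors from those counts. The release of the annotation and the strand setting: not given in the sources used here, so overlapping and antisense genes are uncertain. A deposited gene length was used for length trends. The JQ1 table of the series was not used here.

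Genes passing filterByExpr were normalised by TMM, and edgeR 4.0.16 (robust quasi-likelihood F test, R 4.3.3) compared the 4 libraries, with Benjamini-Hochberg adjustment. SE is the log2 fold change over the square root of F. The length offset was a loess (span 0.3) of each library's log2 CPM deviation on log2 length. Without a control, the spread came mainly from the mutant pair. Scripts were tested on simulated data. Alternatives were DESeq2 1.42.0, limma-voom and limma-trend on FPKM (limma 3.58.1), other scaling factors and filters, a replicate block, a 2-fold rule and leaving out each library. The 55 gene lists and all members were chosen with earlier results of these data known. The naming rule took up to 3 held members per list and direction reaching 10 CPM in either group without overlap, the 15 largest held changes per direction outside the 4 reference lists (osteoclast, interferon, MHC class II, cytokine), and 5 genes that differed most between controls. *Ncl*, *Ctsd*, *Lyz1*, *mt-Co1*, *Kit*, *Flt3*, *Ly6g*, *Ngp*, *Mpo*, *Elane*, *Cd3e*, *Ccr3*, *Hspa1a*, the Y-linked genes and those in the observations were named after their values were seen. Mean chi-square between replicates per gene was 2.67 for mutant and 17.0 for control libraries, so neither pair was 1 library deposited again. Some genes are not reported here.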

Additional observations from a re-analysis of the deposited data

How the results depend on the processing

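With 2 libraries per group the counts of calls depended on the libraries more than on the tool. Leaving out 1 library in turn gave 1291 to 3110 genes higher and 937 to 2972 lower, against 2047 and 1845: 2588 and 2323 without control 1, 3110 and 2972 without control 2, 1291 and 937 without mutant 1, and 1306 and 939 without mutant 2. The lone library of a group was assumed to vary like the others. Among calls held against each control, higher ones numbered 1239 to 1259 without 1 mutant library (1856 in all), and among calls held against each control, lower ones 840 to 849 (1544 in all). A fold of at least 2 with an unadjusted p under 0.05 called 694 higher and 416 lower, of which 592 and 304 had held. DESeq2 gave 1820 and 1557, limma-voom 2095 and 1842. The share of calls that were higher, 52.6%, was 41.6% on FPKM with a pseudocount of 0.1 (1622 higher, 2279 lower), 42.8% with library size only (1744 and 2331) and 43.9% with upper-quartile factors (1800 and 2300), which moved the median of all genes by under 0.1. *Arid1a* ranged from -0.89 to -0.37 over the alternative fits and passed in each, but its change was too small for the 2-fold rule. The labels show no link between libraries of the same replicate number beyond the number itself. Deviations from the group means correlated at 0.0095 between libraries of the same number. This cannot decide whether they were paired, because the deviations of the controls also carry their gene length difference. A replicate block gave 2336 genes higher and 2064 lower, and 2483 and 2373 together with the length offset. Over the alternative fits, to which the 2-fold rule was not added, named genes kept their direction and side of the threshold in 3789 comparisons, lost the call in 89 and gained it in 10, and none reversed. Genes below a few CPM in 1 group rest on few reads, and their fold changes are the least certain.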

Other observations

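Pathway names in the deposited table were tallied after the values had been seen, leaving out the reference lists, as a description with no test. Of 124 spliceosome genes tested, 39 held as lower (31.5%) and 1 as higher (0.81%). Their median was -0.25, with -0.20 without control 1, -0.32 without control 2 and -0.21 with the length offset. *Hnrnpa1*, an RNA-binding splicing regulator, had 421 and 425 CPM in mutant, against 643 and 597 CPM in control (-0.55 ± 0.08), *Snrpd2*, a core protein of the small nuclear ribonucleoproteins, had 12.3 and 13.3 CPM in mutant, against 26.4 and 18.5 CPM in control (-0.81 ± 0.18), and *Slu7*, a second-step splicing factor, was the member that rose (0.35 ± 0.10). The edgeR adjusted p (Benjamini-Hochberg) was 0.000597 for *Hnrnpa1*, 0.00635 for *Snrpd2* and 0.0243 for *Slu7*.

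Of 28 citrate cycle genes, 10 held as lower (35.7%) and 0 as higher. Their median was -0.24, with -0.23 without control 1, -0.29 without control 2 and -0.21 with the length offset. *Idh2*, the mitochondrial NADP-dependent isocitrate dehydrogenase, had 35.5 and 35.4 CPM in mutant, against 102 and 84.9 CPM in control (-1.40 ± 0.12, edgeR adjusted p = 1.28e-05). *Cs*, citrate synthase, the entry step, fell by much less (-0.36 ± 0.08, edgeR adjusted p = 0.00745). Of 37 cysteine and methionine metabolism genes, 16 held as lower (43.2%) and 1, *Ldhb*, as higher (2.70%). Their median of -0.38 depended on the control, with -0.23 without control 1, -0.44 without control 2 and -0.27 with the length offset. The members that fell included genes of the methionine cycle and salvage. *Mat2a*, which makes the methyl donor S-adenosylmethionine, had 281 and 273 CPM in mutant, against 370 and 358 CPM in control (-0.39 ± 0.08). *Ahcy*, which clears the product of that donor, changed by -0.65 ± 0.13 and *Mtap*, which recovers methionine from polyamine synthesis, by -0.71 ± 0.10. Other members held as lower lie outside these routes, among them *Ldha* (-0.53), *Got2* (-0.62) and *Mdh2* (-0.64). *Mdh2* also counts among the citrate cycle genes. The edgeR adjusted p was 0.00449 for *Mat2a*, 0.00280 for *Ahcy* and 0.000489 for *Mtap*, and no value of *Ahcy* was closer to 0 than the -0.47 without control 1.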
